A study of Saccharomyces cerevisiae with 18 samples.

Results

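Yeast lacking the AP endonuclease Apn1 was compared with the same null strain after p*APN1*, a plasmid carrying *APN1* and the marker *LEU2*, had been added. The comparison took 6 of the 18 arrays of the series, 3 of the null strain Δ*apn1* and 3 of the strain Δ*apn1*/p*APN1*, and was made over all 6504 probe sets that carry the name of 1 gene, for 5656 genes. Apn1 cuts the DNA backbone at abasic sites, the baseless positions that DNA glycosylases such as Mag leave behind during base excision repair, and it provides most of this activity in budding yeast, with Apn2 as a backup. The flap endonuclease Rad27 and the DNA ligase Cdc9 act later in the same pathway. *LEU2* encodes an enzyme of leucine synthesis and serves to select the plasmid in a *leu2* host.

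The study altered the balance of Mag and Apn1 in 6 strains, each measured on 3 Affymetrix Yeast Genome S98 arrays from biological triplicates. All strains derive from the parent BGY111, a *MATa* strain that uses galactose and needs histidine, leucine, uracil and tryptophan. Δ*apn1* carries the disruption *apn1-1::HIS3* and the empty vector pYES, and Δ*apn1*/p*APN1* carries the same disruption, pYES and pYepAPN1-2A. Wild type carries pYES alone, and Δ*apn1*/p*MAG* and Δ*apn1*/p*MAG*/p*APN1* carry *MAG* on pYES in place of the empty vector. Every culture was grown in galactose medium without uracil to 10000000 cells per ml. The same medium is given for strains with and without p*APN1*, so that both selected pYES; whether leucine was also left out of the array cultures, which promoter drives *APN1* on the plasmid and how far the insert reaches are not given in the sources used here.

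The values are RMA signals on the log2 scale. Array medians lay between 1.63 and 1.72, and a probe set read below that level has not been shown to be above background. Of the genes of mating type **a** cells the pheromone genes *MFA1* and *MFA2* read 7.79 to 8.23 and 9.16 to 9.80, and the other 5 measured ran from strain means of 1.19 to 5.05. Of 4 genes of alpha cells *MF(ALPHA)1*, *MF(ALPHA)2* and *STE3* had strain means of 1.34 to 1.79, and *SAG1* of 4.43 and 4.63. The galactose genes *GAL1* and *GAL2* read 8.30 to 9.33 and 10.1 to 11.0, while *GAL10* had means of 8.13 in the null and 7.23 with p*APN1*. The latter mean holds a reading of 6.04 on replicate 1, against 8.05 and 7.60 on replicates 2 and 3. Correlations between arrays were 0.970 to 0.982 within Δ*apn1*, 0.968 to 0.986 within Δ*apn1*/p*APN1* and 0.955 to 0.984 between both strains. Replicate 1 of Δ*apn1*/p*APN1* stood apart and read 30 probe sets more than 2 log2 units below the lowest of all other arrays, against 0 to 1 on the other 5 arrays of both strains. Elsewhere in the series replicate 1 of Δ*apn1*/p*MAG* had 31 such probe sets, replicate 1 of wild type with p*MAG* 40, and the others 0 to 1. On the first of these 3 arrays *GAL7*, the galactose-1-phosphate uridylyltransferase gene, read 0.67, against 8.85 and 8.41 on replicates 2 and 3 of its strain. The 76 probe sets of small RNA genes, among them snRNA, snoRNA and rRNA genes, averaged 1.80, 2.30 and 2.10 on the Δ*apn1* arrays. On the Δ*apn1*/p*APN1* arrays they averaged 1.86, 1.82 and 1.75. Split at the widest gap of this signal over all 18 arrays, replicates 2 and 3 of Δ*apn1* fell on the high side and the other 4 arrays on the low side. No label names this split as a batch.

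*APN1* was the one gene that rose in the test adjusted over all probe sets. Its signal read 2.98, 2.81 and 3.15 on the Δ*apn1* arrays and 7.96, 7.49 and 7.27 on the Δ*apn1*/p*APN1* arrays, so that both groups lay far apart. The log2 difference was 4.59 ± 0.56 (standard error of the fit, as everywhere after ±, with n = 3 arrays per strain), or 24.1-fold, at an adjusted p of 0.00445 (limma, Benjamini-Hochberg). It was 1 probe set of 6504, or 0.0154% (limma), and 322 probe sets, 4.95%, had an unadjusted p under 0.05. In wild type, where *APN1* is intact, the same probe set read 1.14, 1.26 and 1.88, below all 3 Δ*apn1* arrays. Where its probes lie relative to the *HIS3* insertion is not known, and its level in the null therefore does not check the label. The difference was 4.59 too, without passing the adjusted test, where each probe set kept its own variance and on low-side arrays alone, where Δ*apn1* has 1 array.

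*LEU2*, the plasmid's marker, showed a difference of similar size on 3 probe sets. The brightest read 4.05, 5.43 and 5.02 in Δ*apn1* and 9.85, 9.17 and 9.0 in Δ*apn1*/p*APN1*. The arrays of both strains did not overlap on any of the 3 probe sets, although the spread within the null was wider than for *APN1*. Their log2 differences were 4.51 ± 0.79 (adjusted p = 0.124), 4.07 ± 0.73 (adjusted p = 0.124) and 3.64 ± 0.74 (adjusted p = 0.281, all from limma over 6504 probe sets), which did not pass the adjusted test. In a fit of only the 6 arrays of both strains the first pair passed, with adjusted p = 0.00715 and 0.00683 (limma).

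The other strain genes showed no difference that passed either test. *URA3*, the marker of pYES and present in both strains, read 4.62, 7.68 and 7.27 in Δ*apn1* and 6.73, 5.94 and 5.18 in Δ*apn1*/p*APN1* (log2 difference −0.57 ± 0.65), so that its lowest and 2 highest readings were all in the null. Without replicate 1 of Δ*apn1* the difference was −1.53 (unadjusted p = 0.00786 from limma). *HIS3*, which disrupts *APN1*, differed by −0.37 ± 0.28 and −0.18 ± 0.21 on its 2 probe sets, and without replicate 1 of Δ*apn1* the former was −0.64 (unadjusted p = 0.0369 from limma). That fit sets only high-side arrays of the null against only low-side arrays of Δ*apn1*/p*APN1*. For *URA3* and *HIS3*, strain and small RNA side cannot be told apart in it. *MAG1*, the glycosylase gene that neither strain carries on a plasmid, read between 0.98 and 1.41 on all 6 arrays and differed by 0.13 ± 1.26. This error is not the spread of these arrays. It comes from the fit over all strains, in which Δ*apn1*/p*MAG* read 7.17, 2.88 and 1.82.

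**Figure D1:**
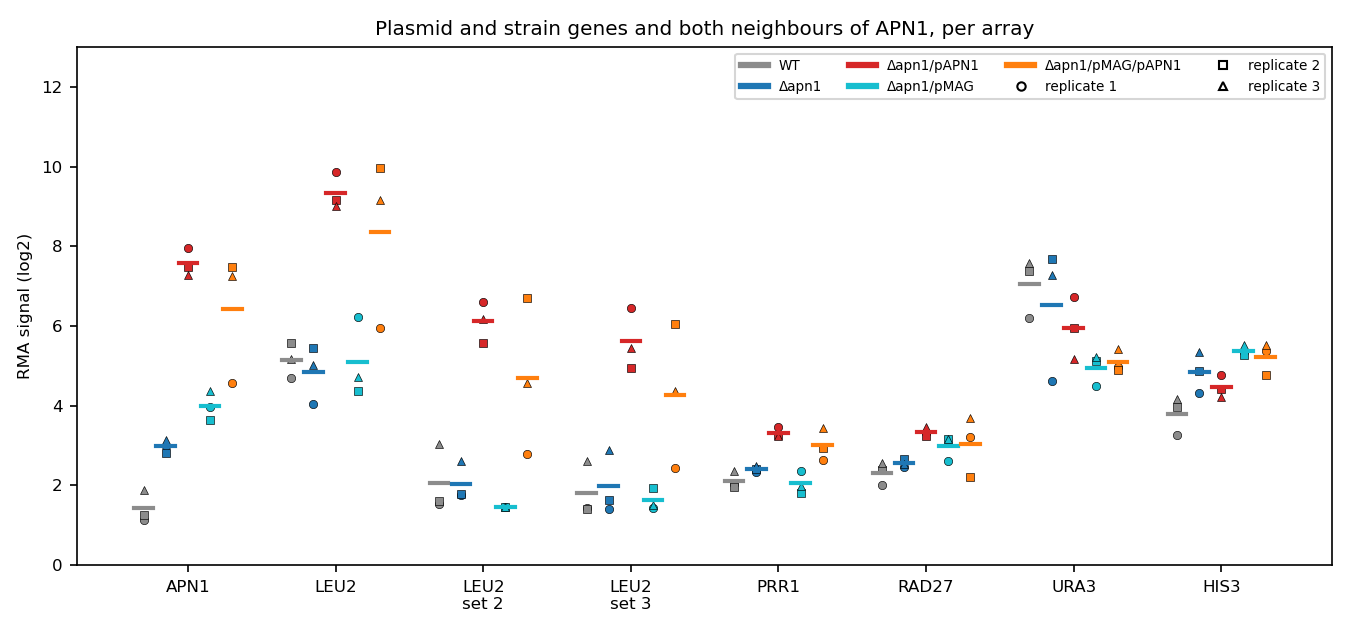
RMA signals on the log2 scale of *APN1*, the 3 *LEU2* probe sets, both neighbours of *APN1*, *URA3* and *HIS3* on each array of 5 strains; symbols are replicates and bars are means of 3 arrays. *APN1* and *LEU2* are high in both p*APN1* strains, except on replicate 1 of the strain with both plasmids, where *APN1* reads 4.57.

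Genes next to *APN1* on chromosome XI were read because a cloned fragment can carry flanking sequence. By the R64 annotation *APN1* lies between *PRR1*, a protein kinase gene of the pheromone pathway, and *RAD27*. One *PRR1* probe set read 2.34, 2.42 and 2.48 in Δ*apn1* and 3.47, 3.26 and 3.25 in Δ*apn1*/p*APN1* (log2 difference 0.91 ± 0.35, unadjusted p = 0.0215 from limma), and the groups did not overlap. A second *PRR1* probe set differed by −0.03, with readings from 1.30 to 1.51, below the array medians. *RAD27* read 2.46, 2.66 and 2.54 against 3.32, 3.23 and 3.46, again without overlap (0.78 ± 0.29, unadjusted p = 0.0162 from limma). Both passed the thresholds of the study's methods, an unadjusted p under 0.05 with a change of at least 1.5-fold, and neither passed the adjusted test (adjusted p = 0.969 from limma). *PRR1* no longer passed the thresholds without replicate 1 of the null (0.87, unadjusted p = 0.0517) or without replicate 1 of the p*APN1* strain (0.84, unadjusted p = 0.0588, limma).

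*ABF1* and *KTI12*, the next genes beyond *RAD27*, also had all 3 Δ*apn1*/p*APN1* arrays above the null, at smaller sizes. *ABF1*, which encodes a DNA-binding factor of promoters and replication origins, differed by 0.33 (unadjusted p = 0.0248) at readings of 0.93 to 1.38, below the array medians. *KTI12*, a gene of tRNA wobble modification, differed by 0.48 (unadjusted p = 0.0481, limma). *HAP4*, the activator subunit for respiratory genes, differed by 0.52 with overlapping arrays. On the other side of *PRR1*, *SBA1* (−0.10), *VPH2* (−0.18) and the tRNA gene *YNCK0008W* (−0.58 ± 0.33) did not pass, and without replicate 1 of Δ*apn1* *YNCK0008W* did (−0.89, unadjusted p = 0.0182 from limma). Its null readings were 2.89 on replicate 1, the low-side array, and 3.86 and 3.77 on the others. Without replicate 1, strain and small RNA side cannot be told apart. Of the genes flanking *LEU2* on chromosome III, *NFS1*, *DCC1* and *BUD3* had probe sets of 1 gene, and their differences ran from 0.07 to 0.31 with none past the thresholds.

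At the thresholds of the methods 104 of 6504 probe sets (1.60%) differed between the strains, 76 higher (1.17%) and 28 lower (0.431%) in Δ*apn1*/p*APN1*, for 101 genes. On 85 of the 104 the 3 arrays of one strain all lay outside the range of the other. Without such selection, 652 probe sets (10.0%) had all 3 Δ*apn1*/p*APN1* arrays above the null and 279 (4.29%) all 3 below. Of all differences 56.3% lay above 0, and most were small, with 93.5% under 0.5 in size and a median size of 0.14. The unadjusted p threshold alone gave 4.95% of the probe sets, close to the 0.05 at which it was set.

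**Figure D2:**
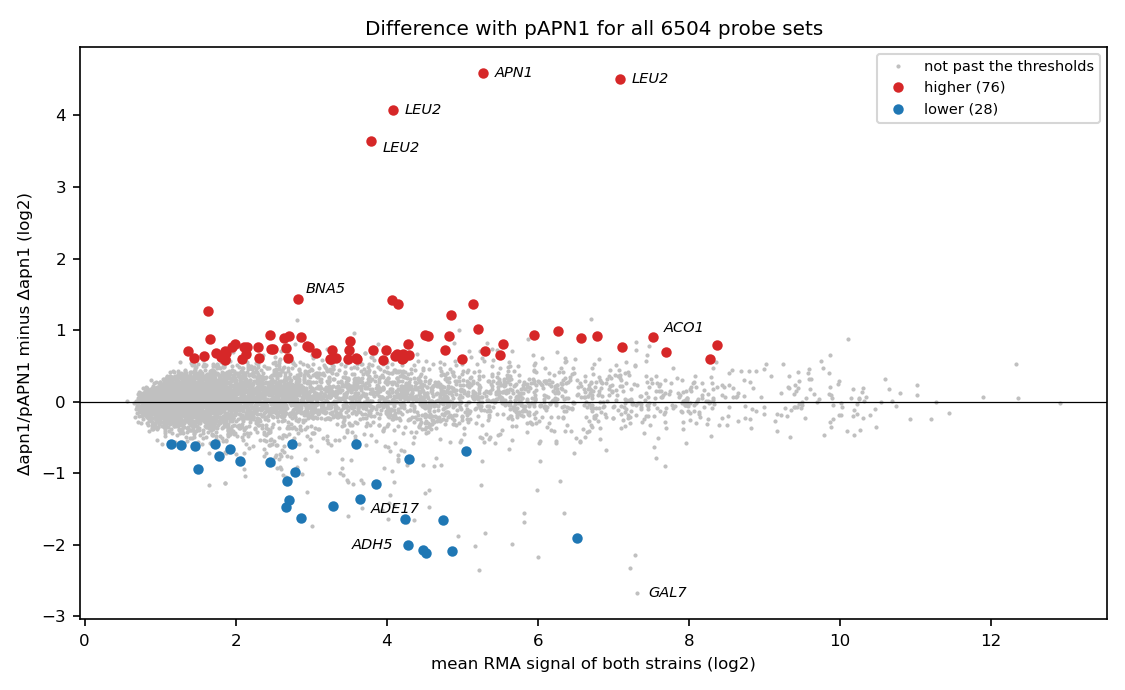
Log2 difference of Δ*apn1*/p*APN1* minus Δ*apn1* (y axis) against the mean log2 signal of both strains (x axis) for 6504 probe sets; coloured points passed the methods' thresholds (76 higher, 28 lower). *APN1* at 4.59 and *LEU2* at 3.64 to 4.51 stand apart, and *GAL7* at −2.67 is low on 1 array only and did not pass.

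Apart from *APN1* and *LEU2*, the smallest p among the higher genes was that of *PAN3*, which encodes the regulatory subunit of a poly(A) nuclease. It read 1.65, 1.5 and 1.62 in Δ*apn1* and 2.22, 2.46 and 2.51 in Δ*apn1*/p*APN1* (log2 difference 0.81 ± 0.17, adjusted p = 0.281 from limma), so that the null lay near or below the array medians. *PDS5*, a cohesin maintenance gene, differed by 0.71 ± 0.17 from 1.17, 0.97 and 0.92, below the array medians, to 1.66, 1.68 and 1.85. *BNA5*, the kynureninase gene of NAD synthesis from tryptophan, had the largest rise of the genes named here other than *APN1* and *LEU2*, 1.43 ± 0.40. It read 1.83, 2.22 and 2.27 in Δ*apn1* against 3.56, 3.59 and 3.47. None of these groups overlapped, a condition of the rule that named them. The cell wall sensor gene *WSC3* (0.76), the translation initiation factor gene *SUI2* (0.76) and the chloride channel gene *GEF1* (0.76) followed, each with adjusted p of 0.919 to 0.969 from limma.

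The mitochondrial enzymes of the tricarboxylic acid cycle were the list with the most higher genes. Of its 17 measured genes 6 were higher and 0 lower at the methods' thresholds, where 1.29% of the 5656 genes were higher with 1 probe set each. The median difference over the 17 was 0.50, against 0.05 over all genes, 15 of 17 lay above 0 (58.5% of all genes), and 11 of 17 had all Δ*apn1*/p*APN1* arrays above all Δ*apn1* arrays (10.7% of all genes). No member passed the adjusted test. The list was drawn up with earlier results of these arrays known, in which the cycle had already appeared in this strain, so the count is a description.

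*ACO1*, the aconitase gene, read 7.15, 6.96 and 7.09 in Δ*apn1* and 8.05, 8.02 and 7.86 in Δ*apn1*/p*APN1* (log2 difference 0.91 ± 0.22, unadjusted p = 9.23e-04, adjusted p = 0.75, limma). *IDH2*, one subunit of the NAD-dependent isocitrate dehydrogenase, read 7.42, 7.41 and 7.22 against 7.98, 8.22 and 7.93 (0.69 ± 0.17, adjusted p = 0.75). For both genes the arrays within a strain lay much closer together than the strains did. *KGD2*, a subunit of the 2-oxoglutarate dehydrogenase complex, differed by 0.59 ± 0.24 from 4.93, 4.54 and 4.64 to 5.26, 5.39 and 5.25. *CIT1*, the mitochondrial citrate synthase gene, read 8.26, 7.80 and 7.87 against 8.79, 8.80 and 8.71 (0.79 ± 0.32). For these genes too the strains did not overlap.

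The remaining calls of the cycle were *SDH2* (0.60), the iron-sulfur subunit of succinate dehydrogenase, and *IDH1* (1.21 ± 0.54), the other isocitrate dehydrogenase subunit, whose null arrays were spread from 3.22 to 4.86. *MDH1* (0.83) and *FUM1* (0.78), which encode malate dehydrogenase and fumarase, had differences as large but wider errors (0.41 and 0.46) and did not pass, though their arrays did not overlap. *SDH1* (0.22), *SDH4* (0.08), *LSC2* (0.21) and *IDP1* (−0.03) differed little. *CIT3*, a minor citrate synthase gene, was the member lowest against the null (−0.38), at signals of 0.51 to 1.24 that lie below the array medians. Averaged over the 17 genes, the Δ*apn1* arrays read 6.38, 6.17 and 6.37, the Δ*apn1*/p*APN1* arrays 6.80, 6.85 and 6.68 and the wild type arrays 5.92, 6.01 and 6.33.

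**Figure D3:**
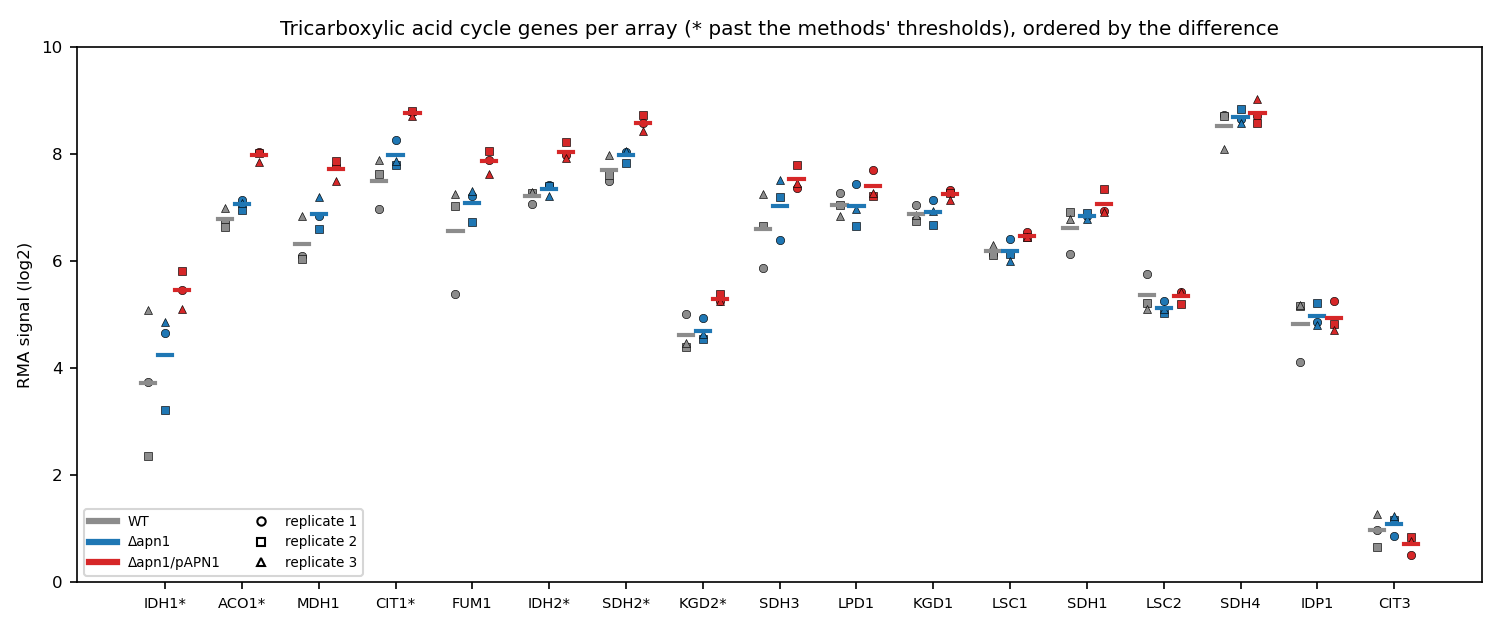
RMA signals on the log2 scale of the 17 tricarboxylic acid cycle genes on each array of wild type, Δ*apn1* and Δ*apn1*/p*APN1*, ordered by the difference with p*APN1*; symbols are replicates, bars are means of 3 arrays and stars mark the 6 genes past the methods' thresholds. The 3 Δ*apn1*/p*APN1* arrays lie above the 3 null arrays for 11 of the 17.

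The count of the cycle changed when single arrays were left out. When replicate 2 of the null was left out it was 2. When replicate 2 of the p*APN1* strain was left out it was also 2, and it was 3 when replicate 1 was, and *ACO1* and *IDH2* passed in each of these fits. The median over the list moved less than the count. It was 0.512, 0.458 and 0.595 in these fits, in that order, against 0.504 with all arrays. With the mean small RNA signal as a covariate 2 passed and the median was 0.445, and with the small RNA side as a block 2 passed and the median was 0.39. In both fits the pair was again *ACO1* and *IDH2*. On the low-side arrays alone, where Δ*apn1* has 1 array, 5 passed, with a median of 0.37.

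Other mitochondrial lists had smaller medians. As a background, 1.29% of all genes were higher, 0.460% lower and 58.5% above 0. Of 26 respiratory chain genes 2 were higher, the internal NADH dehydrogenase gene *NDI1* (0.80 ± 0.31) and the complex III core gene *COR1* (0.92 ± 0.41), with a median of 0.24 over the list. The cytochrome *c* isoform gene *CYC7* (−0.72) and the cytochrome oxidase gene *COX8* (0.34) did not pass. Of 40 mitochondrial protein import genes 2 were higher, *SAM50* (0.67) and *TOM70* (0.68), which encode outer membrane import components. Of 71 mitochondrial ribosomal protein genes 1 was higher and 2 lower, and 53 lay above 0. None of 17 ATP synthase genes and none of 80 cytosolic ribosomal protein genes passed, with medians of 0.11 and −0.07. *IDH1*, *IDH2* and *ACO1*, already counted in the cycle, are also the 3 members called among 11 genes of the retrograde pathway, which links mitochondrial state to nuclear transcription. Its regulators *RTG1* (0.12), *RTG2* (0.13), *RTG3* (0.30) and *MKS1* (−0.09) did not pass. Nor did its members *CIT2* (0.06), *DLD3* (0.27), *PYC1* (0.42) and *PDH1* (−0.74), the last with 0.58 on replicate 1 of Δ*apn1*/p*APN1*.

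Calls among DNA repair genes other than *APN1* are read against 1.29% of all genes higher and 0.460% lower. Of 9 other base excision repair genes, *RAD27*, the *APN1* neighbour, was the 1 higher and 0 were lower. Lists this short would hold few calls at those shares, so the counts are a description. *APN2*, the second AP endonuclease gene, read 1.39, 1.40 and 1.16 in Δ*apn1* and 0.37, 1.07 and 1.29 in Δ*apn1*/p*APN1* (log2 difference −0.41 ± 0.19, unadjusted p = 0.0489 from limma), with overlapping arrays below the array medians. The glycosylase genes *NTG2* (−0.62), *NTG1* (−0.28), *UNG1* (−0.23) and *OGG1* (0.05) and the ligase gene *CDC9* (−0.04) did not pass, and the *NTG2* value rests on replicate 1 of Δ*apn1*/p*APN1*, which read 0.54 against 2.51 and 2.70. Of the 9 genes for bypass of abasic sites none passed, with *REV3* and *REV7*, both subunits of DNA polymerase zeta, at −0.37 and −0.35 and *REV1* at −0.06. Replicate 1 of Δ*apn1*/p*APN1* read *REV3* at 0.27, against 0.91 and 0.94 on the others of its strain. All *REV3* and *REV1* readings of both strains lay below the array medians.

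Among 21 genes of the DNA damage checkpoint and ribonucleotide reductase, 1 was higher, where 1.29% of all genes were. *RNR1*, the large subunit of ribonucleotide reductase, read 3.66, 4.73 and 4.97 in Δ*apn1* and 5.72, 6.49 and 5.26 in Δ*apn1*/p*APN1* (log2 difference 1.37 ± 0.62, unadjusted p = 0.0439, adjusted p = 0.969, limma). Its arrays did not overlap, but the null arrays were spread over more than 1 unit, and wild type had a mean of 5.02. The damage-inducible *RNR3* differed by −0.40, *RNR2* by 0.57 and *RNR4* by 0.16. None of 25 excision and recombination repair genes, 6 mismatch repair genes and 48 DNA replication genes passed, where 1.29% of all genes were higher and 0.460% lower. In the last list *POL12*, a subunit of DNA polymerase alpha, had the smallest p (0.43 ± 0.11), under the 1.5-fold limit.

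Of 12 genes of leucine, isoleucine and valine synthesis, the pathway of the plasmid's marker without *LEU2* itself, none passed and the median was 0.04. *LEU1*, the isopropylmalate isomerase gene, differed by 0.33 ± 0.30, *ILV2*, the acetolactate synthase gene, by 0.62 ± 0.38 and *BAT2*, a branched-chain aminotransferase gene, by 0.28. *LEU4* read 6.33, 4.18 and 7.34 against 2.81, 6.70 and 6.33, a scatter within each strain larger than the difference of −0.67. *LEU3*, which encodes the regulator of the pathway, differed by −0.22.

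Purine synthesis was the one list with more than 1 gene lower and no gene higher. Of its 19 measured genes 2 were lower, where 0.460% of all genes were, and the median was −0.19. *ADE17*, which encodes the bifunctional enzyme of the last steps to IMP, read 3.84, 4.65 and 4.47 in Δ*apn1* and 2.78, 2.88 and 3.23 in Δ*apn1*/p*APN1* (log2 difference −1.35 ± 0.55, unadjusted p = 0.0270 from limma). *ADE8*, the glycinamide ribotide transformylase gene, read 4.38, 4.92 and 4.79 against 4.08, 3.60 and 4.02 (−0.80 ± 0.23, unadjusted p = 0.00315). Neither gene overlapped between the strains, and wild type had means of 4.95 and 4.82. *ADE6* (−0.53) and *APT1* (−0.54) did not reach both thresholds. Without replicate 1 of Δ*apn1*/p*APN1*, *ADE8* stayed past the thresholds at −0.89 and *ADE17* did not, at −1.26 with an unadjusted p of 0.0672 (limma). *ADE17* also failed them without replicate 2 (−1.19) or 3 (−1.28) of the null or replicate 2 of the p*APN1* strain (−1.31).

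The lists that follow had at most 2 higher genes each, where 1.29% of all genes were higher. In lists of 4 to 21 genes 2 calls lie above that share, but the lists were not tested against it. Of 4 tubulin genes 2 were higher, *TUB2* (0.90 ± 0.29) and *TUB1* (0.71 ± 0.28), the beta and an alpha subunit, and replicate 1 of Δ*apn1* read *TUB2* at 5.24 against 6.65 and 6.49 on its other arrays. Of 14 daughter cell separation genes the cell wall gene *PIR1* (0.98) and the glucanase gene *DSE4* (0.89) were higher. Of 21 pheromone response genes *SST2* (0.92), which switches the receptor's G protein off, and *FAR1* (0.93), which encodes the inhibitor that arrests the cell cycle in G1, were higher. The arrays of both strains overlapped for *FAR1*. Next by p were *FUS3* (0.55) and *PRM2* (−0.34), which did not pass. Lists with a single higher gene included those of *GAL3* (0.92), the galactose sensor, *HSC82* (0.76), an Hsp90 gene, *PRE2* (0.66), a proteasome subunit, *ERG5* (0.93), a sterol desaturase, and *GDH1* (0.91), the glutamate dehydrogenase of ammonium assimilation. Histidine, lysine and arginine synthesis, iron uptake, ribosome biogenesis and oxidative stress had 0 calls.

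The lower genes depended on single arrays. Of the 28 lower probe sets replicate 1 of Δ*apn1*/p*APN1* was the lowest of all 18 arrays on 19, and below all others by more than 1 unit on 12. Without it the counts were 84 higher and 16 lower, and 4 of the 28 were among the 16: *ADE8*, the tRNA gene *YNCJ0017C* and 2 probe sets of *YFL067W*, a gene of unknown function. Of the 28, 6 passed again without replicate 2 of the null, 10 without its replicate 3 and 6 with the small RNA side as a block. *ADH5*, an alcohol dehydrogenase gene, read 4.84, 5.80 and 5.23 in Δ*apn1* and 1.31, 4.23 and 4.30 in Δ*apn1*/p*APN1* (log2 difference −2.01, and −1.02 with an unadjusted p of 0.0603 without replicate 1 of the p*APN1* strain, limma). *CPP1* read 3.91, 4.12 and 4.04 against 0.39, 3.67 and 3.63 (−1.46). The profilin gene *PFY1* read 2.23 on that replicate and 7.27 and 7.18 on the others of its strain, against 7.29 to 7.58 in the null. The proline permease gene *PUT4* (−1.47), *RTC2* (−1.62) and *RDS3* (−0.83) read 0.46, 0.60 and 0.89 there.

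**Figure D4:**
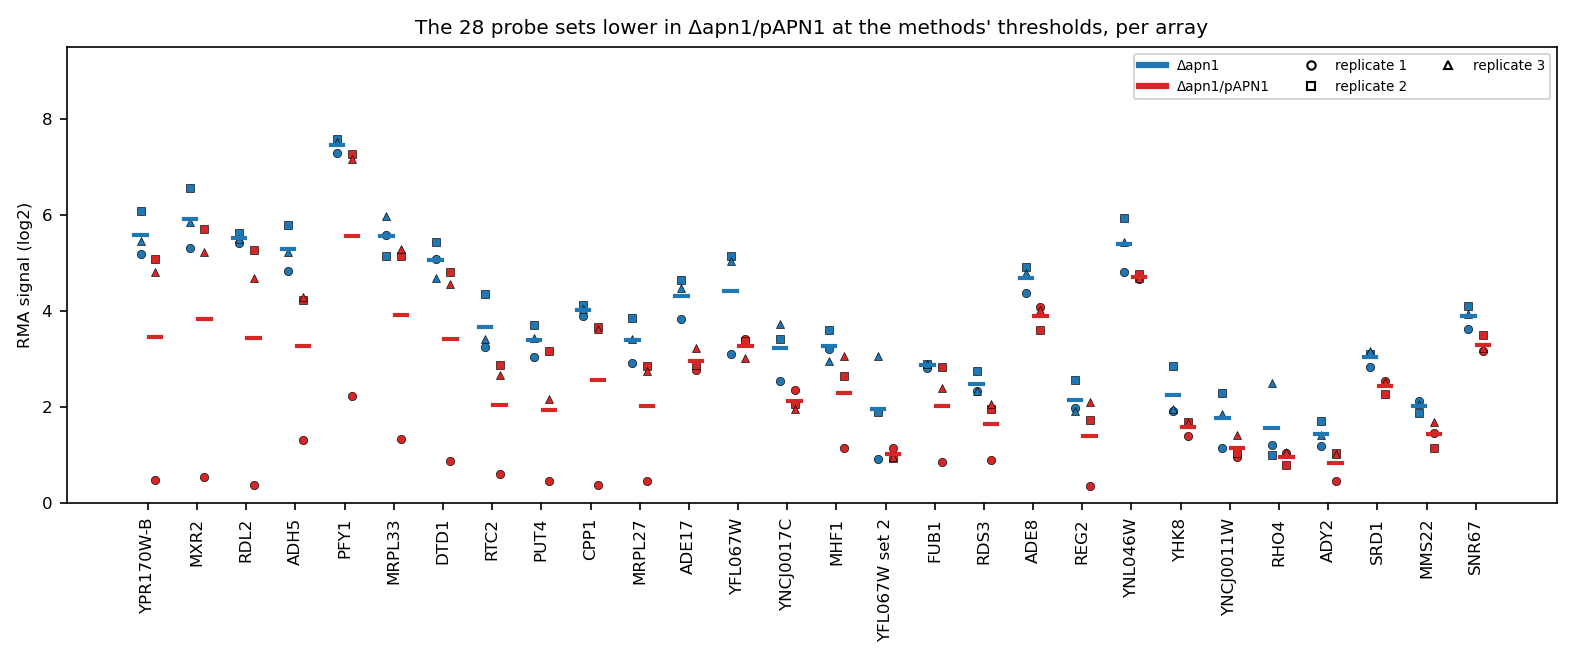
RMA signals on the log2 scale of the 28 probe sets lower in Δ*apn1*/p*APN1* at the methods' thresholds, on each array of both strains, ordered by the difference; symbols are replicates and bars are means of 3 arrays. For *ADH5*, *PFY1*, *CPP1* and others replicate 1 of Δ*apn1*/p*APN1* (red circle) lies far below the other 5 arrays.

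Of the lower probe sets 25 were for protein-coding genes, 2 for tRNAs and 1 for the small nucleolar RNA *SNR67*. All 76 higher ones were for protein-coding genes. Of the 6504 probe sets tested, 6319 were for protein-coding genes, 92 for tRNAs and 59 for small nucleolar RNAs. Protein-coding genes thus made up most of the probe sets tested, and the split of the calls by class was not tested against this background. *SNR67* read 3.62, 4.12 and 3.93 against 3.18, 3.50 and 3.23 (−0.59), and *YNCJ0017C* 2.55, 3.41 and 3.74 against 2.37, 2.06 and 1.96 (−1.11). In both the lowest null array was replicate 1, the null array on the low side of the small RNA signal. With that side as a block their differences were −0.30 and −0.40, and neither passed. *SNR67* is of a class that enters the small RNA signal, so that for it this fit is no separate check. The part of the small RNA signal in these and in the other calls was not tested beyond such fits. With the side as a block 45 of the 104 calls passed again, and with the mean signal as a covariate 55.

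The same plasmid was also added to the null that carries *MAG*, in cultures that share no array with the first comparison. Replicate 1 of its control Δ*apn1*/p*MAG* stood apart, with an *ACT1* 5′ signal 7.78 below the 3′ signal against 0.662 and 0.716 on its other arrays, a small RNA mean of 2.56 against 1.71 and 1.69, and a mean correlation of 0.928 with them. There, 0 probe sets passed the adjusted test (limma; 265, or 4.07%, at an unadjusted p under 0.05), and 109 (1.68%) passed the thresholds of the methods, 58 higher (0.892%) and 51 lower (0.784%). Without that array 83 passed the thresholds, and 1, lower, the adjusted test. *APN1* read 3.97, 3.64 and 4.38 in Δ*apn1*/p*MAG* and 4.57, 7.48 and 7.26 after p*APN1* had been added, and the brightest *LEU2* probe set 6.21, 4.38 and 4.72 against 5.94, 9.95 and 9.15. Replicate 1 of the strain with both plasmids was thus the low array for both genes of the plasmid. Without it the *APN1* difference was 3.37 (adjusted p = 4.81e-04, limma), against 2.44 with it, and 3 probe sets passed the adjusted test, all of *APN1* or *LEU2*.

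Beyond the plasmid's genes both comparisons shared few calls. Of the 104 probe sets past the thresholds in Δ*apn1*, 66 had the same sign in Δ*apn1*/p*MAG* (63.5%, against 55.8% of all 6504), and 8 passed the thresholds there in the same direction, 0 in the opposite. These were *APN1*, the 3 *LEU2* probe sets, *PRR1* (0.91 and 0.95), *PIR1* (0.98 and 0.84), *ERG5* (0.93 and 0.81) and *SDH2* (0.60 and 0.90). Without *APN1* and *LEU2*, 62 of 100 had the same sign. When replicate 1 of Δ*apn1*/p*MAG* was left out, 50 of the 104 had the same sign (46.9% of all), 8 passed in both, 1 passed in the opposite direction, and *PIR1* (0.64) and *ERG5* (0.64) no longer passed. When replicate 1 of the strain with both plasmids was left out, 69 had the same sign (57.2% of all) and 12 passed in both. *PRR1* and *SDH2* passed in each of these fits. *RAD27*, the other neighbour of *APN1*, differed by 0.05 in the second comparison, with 2.62, 3.17 and 3.15 against 3.20, 2.21 and 3.69. Of the tricarboxylic acid cycle genes 1 was higher there (0.902% of all genes), with a median of 0.09 (2 and 0.24 with the first array of the *MAG* control left out, 2 and 0.26 without replicate 1 of the strain with both plasmids), and *ADE8* (0.03) and *ADE17* (0.42) were not lower.

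**Figure D5:**
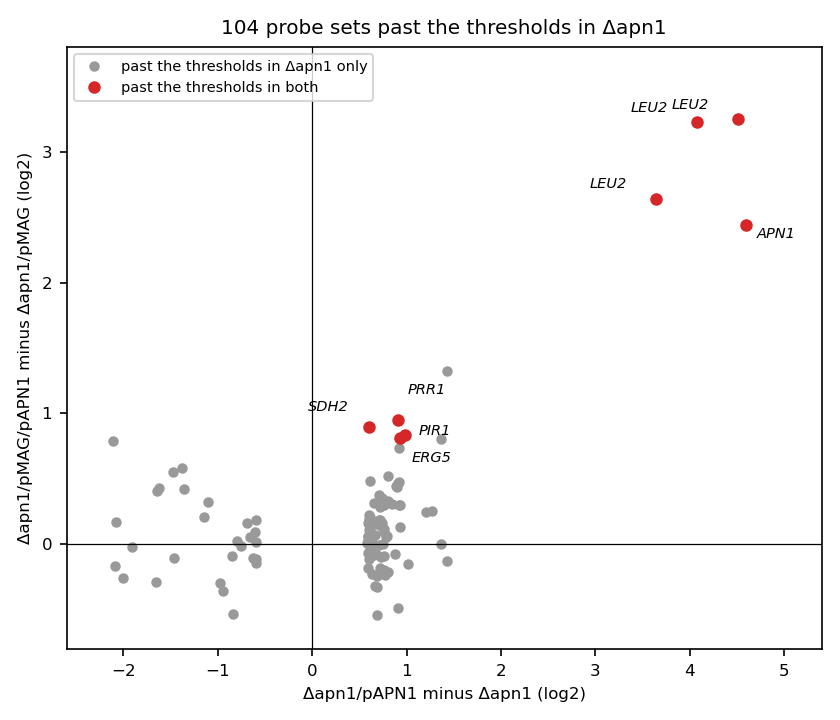
Log2 differences with p*APN1* in Δ*apn1*/p*MAG* (y axis) against those in Δ*apn1* (x axis) for the 104 probe sets past the methods' thresholds in Δ*apn1*; red points passed in both. Apart from *APN1* and *LEU2* at the upper right, 4 genes passed in both, and most of the others lie near 0 on the y axis.

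Whether the effect of p*APN1* differed between both backgrounds was tested as an interaction. No probe set passed the adjusted test (0 of 6504 in limma, with 203, 3.12%, at an unadjusted p under 0.05), and 123 (1.89%) passed the methods' thresholds, 52 higher (0.800%) and 71 lower (1.09%). *APN1* itself differed by −2.15 (unadjusted p = 0.0161, limma), and by −1.22 (unadjusted p = 0.0152) without replicate 1 of the strain with both plasmids. For the brightest *LEU2* probe set these values were −1.26 and −0.06. Among the cycle genes *IDH2* was the 1 of 17 below an unadjusted p of 0.05, at −0.53 (adjusted p = 0.998 from limma). Of the 17, 12 lay below 0, and the median was −0.365. With the first array of the *MAG* control left out 0 were below that p and the median was −0.19, and without replicate 1 of the strain with both plasmids 0 were and it was −0.27. A difference between the backgrounds was therefore not shown for these genes, nor were equal effects.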

How the data were processed

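Total RNA of 6 strains had been hybridized to 18 arrays. The authors processed the scans with RMA (version not given in the sources used here), and the deposited values are log2 signals per probe set, normalized across arrays; scans were not used here. Of 9335 probe sets, 60 controls, 328 with several gene names and 2443 without a name in the platform annotation were left out. A linear model with a mean for each of the 6 strains was fitted over 18 arrays (limma 3.58.1, R 4.3.3, lmFit and eBayes, 12 residual degrees of freedom, two-sided) and p-values were adjusted over 6504 probe sets (Benjamini-Hochberg, 0.05). It was tested on simulated data. Gene lists used the brightest probe set per gene. The number of arrays limits the precision.

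The comparison, lists and naming rule were chosen with earlier results of these data known. The rule names plasmid and strain genes, 4 neighbours on each side of *APN1* and *LEU2*, up to 10 higher and 10 lower genes without overlap by p, and up to 4 members of a list by p. *GAL7*, *PFY1*, *PUT4* and further list members were named after their values had been seen. Descriptions of 2 Δ*apn1* arrays number the deleted gene differently from their source labels, which name *apn1*. Leaving replicate 1 of Δ*apn1*/p*MAG* out of the first comparison's fit, and it or replicate 1 of the strain with both plasmids out of the shared calls, was chosen after the values were seen.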

Additional observations from a re-analysis of the deposited data

How the results depend on the processing

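The count at an adjusted p under 0.05 with p*APN1* in Δ*apn1*, 1, was 0 in the methods' ANOVA, 4 in a fit of only the groups compared, 6 with array weights, 2 with the small RNA mean as a covariate, 2 with the small RNA side as a block and 9 on low small RNA arrays only, where Δ*apn1* has 1 array and *APN1* was not among them; it was 1 without any 1 array. The 104 at the methods' thresholds became 256 with array weights and 206 on the low arrays, and 79 to 228 without 1 array, with 228 (138 higher, 90 lower) without replicate 1 of Δ*apn1*. Of the 104, 45 to 103 were kept in the other settings that kept all arrays, 35 on the low arrays and 48 to 102 without 1 array. The 6 tricarboxylic acid cycle genes became 2 with the covariate, 2 with the block, and 2 to 6 without 1 array, and kept a median above 0 throughout. *URA3*, −0.57, was 1.33 on the low arrays. With p*MAG*, the 109 became 70 in the ANOVA, 64 in a fit of only the groups compared and 173 with array weights, and 83 to 339 without 1 array (339 when replicate 2 and 204 when replicate 3 of its control was left out), with 0 to 3 at the adjusted p (1 without replicate 1 of the control, 3 without replicate 1 of the p*APN1* strain). The interaction's 123 became 364 with array weights, 188 with the covariate and 204 on the low arrays (2 at the adjusted p), and 80 to 243 without 1 array (195 and 80 without replicates 1 and 2 of Δ*apn1*, 186 and 243 without replicates 1 and 2 of the *MAG* control, 206 without replicate 3 of the strain with both plasmids). The causes were not tested. Without replicate 1 of Δ*apn1*, the null has only high-side arrays and Δ*apn1*/p*APN1* only low-side ones. Strain and small RNA side cannot be told apart in that fit. Over the single genes and all alternatives, 716 values kept their side of the thresholds, 53 lost it and 6 gained it. A change of sign was counted apart only where a fit passed the thresholds, which held for 1 value, that of *URA3*. The 716 include values that changed sign without passing. Same-numbered arrays of Δ*apn1* and Δ*apn1*/p*APN1* had correlations of deviations of −0.07, 0.05 and −0.16, so the numbers were not taken to pair the samples; with the replicate block the counts were 1 and 101, 0 and 100 with p*MAG*, and 0 and 121 for the interaction. Without replicate 1 of Δ*apn1*/p*MAG* in the fit the counts in Δ*apn1* were 1 and 121.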
